A study of Homo sapiens with 12 samples.

Results

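The noncoding snoRNA host genes are transcribed for the small RNAs that lie in their introns, and 9 of them that are linked to growth arrest and to translation-coupled RNA decay were followed after knockdown of MESH1. They are GAS5, SNHG1, SNHG5, SNHG6, SNHG8, SNHG12, SNHG15, SNHG16 and ZFAS1, picked by gene symbol from the 23710 genes of the count tables, and all 9 had a row and passed the filter on low counts in both experiments. The cells were RCC4, an established human clear cell renal carcinoma line that lacks the VHL tumor suppressor. RNA-seq was run on 12 libraries of poly(A)-selected, strand-specific RNA, and the question was how the transcriptome responds when MESH1, an NADPH and ppGpp phosphatase whose gene symbol is HDDC3, is silenced.

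In experiment 1, 3 libraries came from cells given the siRNA siMESH1-CDS and 3 from cells given the non-targeting siRNA siNT. In experiment 2, 3 libraries came from cells given a different siRNA against MESH1, siMESH1-7002, and 3 from its own siNT cells. All 12 cultures received 40 pmol of siRNA by lipid transfection and were harvested at 72 h, and the labels call the 3 libraries of a group biological replicates. No stable knockout line was used and all samples are of 1 cell line. Experiment 1 ran on lanes 4 to 7 and experiment 2 on lane 2, so a difference between the siRNAs and a difference between the experiments cannot be told apart.

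Small nucleolar RNAs (snoRNAs) guide the chemical modification and processing of ribosomal RNA, and most human ones are trimmed from introns after a host transcript is spliced. In noncoding hosts the joined exons hold no long reading frame, and for several of them ribosomes still engage the RNA and stop at early stop codons, which exposes it to nonsense-mediated decay. Many of these genes start transcription in a run of pyrimidines, as do the 5′ terminal oligopyrimidine (TOP) mRNAs of ribosomal proteins, whose translation follows growth signals. GAS5 was named for its accumulation in growth-arrested cells, in which translation and thus decay of the RNA slow down.

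The transcript starts are shown because a pyrimidine run there is a feature that many of these genes share with the TOP mRNAs. An annotated start was counted as TOP-like when its first base was C and at least 4 further bases, each C or T, followed. Of the 9 hosts, 8 (88.9%) had at least 1 GENCODE 29 transcript with such a start, against 13.6% of 22276 genes of the count tables that matched the annotation, 8.81% of 999 other long noncoding genes and 77.0% of 87 ribosomal protein genes. The hosts have many annotated transcripts, and counted by transcript the shares were 17.4% of 132 for the hosts and 2.60% for all matched genes. SNHG15 had no such start among its 10 transcripts. The first 25 bases at the start shared by most TOP-like transcripts follow for 7 hosts, with the pyrimidine run in capitals (GRCh38). They lie at chr1:173867965-173867989 (minus strand, GAS5), chr11:62855455-62855479 (minus, SNHG1), chr6:85678709-85678733 (minus, SNHG5), chr4:118278758-118278782 (plus, SNHG8), chr1:28581849-28581873 (minus, SNHG12), chr17:76557769-76557793 (plus, SNHG16) and chr20:49278642-49278666 (plus, ZFAS1).
GAS5: CTTTTCgaggtaggagtcgactcct
SNHG1: CTCCTgtctgcaggatttacgcgca
SNHG5: CTTTTacgtcggccttcgcgagcgt
SNHG8: CTTTCacattcgggaagcgtcggga
SNHG12: CCTTTCTCCCCgccgcattcccggt
SNHG16: CTTTTCgaggtcggccgcgtggctg
ZFAS1: CTTTCgcgtctgcggtgcccggagt
GAS5 and SNHG16 shared their first 11 bases, the longest identical stretch of any pair of these starts, while SNHG12 had the longest run, of 11 pyrimidines. The printed starts were picked among TOP-like transcripts only, and several lie inside the outermost annotated start. The distance was 1259 bases for SNHG12, 893 for GAS5, 464 for ZFAS1 and 435 for SNHG1, and 49, 15 and 3 for SNHG8, SNHG5 and SNHG16. A TOP-like start was found in 1 of 25 transcripts of SNHG1, 1 of 5 of SNHG8, 4 of 17 of SNHG12 and 6 of 29 of GAS5. Whether the cells used these starts was not measured.

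The libraries held 34063155 to 49134129 reads in genes in experiment 1 and 24787804 to 31651125 in experiment 2. HDDC3 fell from 7.48 ± 0.913 to 0.158 ± 0.158 CPM with siMESH1-CDS and from 13.2 ± 0.630 to 1.38 ± 0.291 with siMESH1-7002 (mean ± SD, n = 3, edgeR quasi-likelihood test, adjusted p = 0.00174 and 2.51e-12). The siMESH1-CDS libraries held 0 to 11 HDDC3 reads. The log2 fold change there was -5.56, and -3.65 and -3.13 after corrections for GC content by the longest and the median transcript. CPM, the usual count per unit of library total, is given here after TMM scaling, which sets libraries to a common level for most genes. The kidney lineage marker PAX8 lay between 31.2 and 479 CPM in every library, whereas the leukocyte gene PTPRC and the endothelial gene PECAM1 reached at most 0.0215 CPM. NDUFA4L2 and CA9, which are usually high in clear cell carcinoma, were at 0.0780 to 32.0 and 1.53 to 31.5 CPM in experiment 1 and far higher in experiment 2. The spread among libraries of a group, which edgeR put at a common biological coefficient of variation of 0.299 in experiment 1 and 0.0490 in experiment 2, was wide for siMESH1-CDS alone. Pairs of siMESH1-CDS libraries gave a chi-square per degree of freedom of 68.9 to 291, against 3.82 to 15.8 for siNT of experiment 1 and 2.29 to 13.5 for the pairs of experiment 2. With siMESH1-CDS the change of a gene moved with the GC content of its transcript: the median log2 fold change was 1.10 in the lowest of 10 GC classes and -3.63 in the highest, against 0.14 and -0.09 with siMESH1-7002. In bulk RNA, fewer cells that express a gene and less RNA per cell cannot be told apart.

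The hosts differed widely in level. Per kilobase of the median annotated transcript, the siNT cells of experiment 1 held GAS5 at 211 ± 4.92 CPM per kb, ZFAS1 at 181 ± 11.6 and SNHG1 at 180.3 ± 4.36. SNHG6 followed at 79.6 ± 1.83, SNHG8 at 63.6 ± 5.13 and SNHG16 at 49.0 ± 1.13, and SNHG15, SNHG5 and SNHG12 were lowest at 30.2 ± 3.65, 29.2 ± 1.49 and 18.1 ± 0.459. The ranges of ZFAS1 and SNHG1, and those of SNHG15 and SNHG5, overlapped, and the other neighbours in this order did not. In the siNT cells of experiment 2, GAS5 (180.3 ± 7.71 CPM per kb), ZFAS1 (129.9 ± 4.97), SNHG6 (108 ± 2.80) and SNHG8 (80.5 ± 1.11) led the order, with no overlap between any neighbours. SNHG1 stood in a different place there, at 25.1 ± 0.510 CPM per kb, below SNHG5 and above SNHG15 and SNHG12. Before scaling by length, SNHG1 was at 138 ± 3.34 CPM in the siNT cells of experiment 1 and at 19.2 ± 0.391 in those of experiment 2, which is a description of 2 sets of libraries that no test compared. The 9 hosts together made up 560.2 ± 10.5 CPM in siNT and 606 ± 23.5 with siMESH1-CDS, and 402 ± 9.16 in siNT and 431 ± 10.1 with siMESH1-7002, so the summed ranges did not overlap within either experiment. The first of these directions turned with the scaling: as CPM of total reads, a scale added after seeing the data, the sum was 599 to 636 in siNT and 491 to 591 with siMESH1-CDS, again without overlap. In experiment 2 it was 393 to 409.8 in siNT and 420.5 to 441 with siMESH1-7002.

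**Figure D1:**
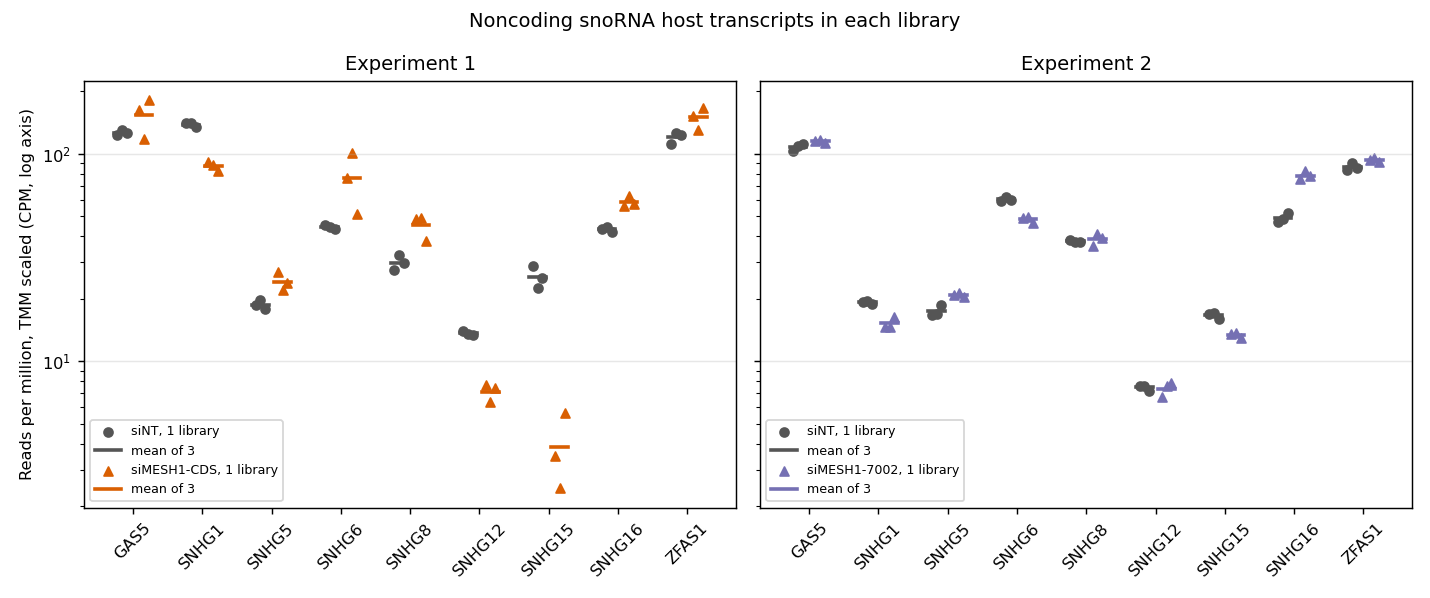
CPM (log axis) of the 9 noncoding snoRNA hosts in each of the 12 libraries, experiment 1 on the left and experiment 2 on the right, with siNT as circles, the MESH1 siRNA as triangles and a line at each mean of 3. SNHG15 lay at 2.44 to 5.61 CPM with siMESH1-CDS against 22.6 to 28.7 in its siNT libraries, and SNHG16 at 75.2 to 82.2 with siMESH1-7002 against 46.7 to 51.9.

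The hosts did not move as a group. With siMESH1-CDS, 4 of the 9 were called higher (SNHG6, SNHG8, SNHG16 and ZFAS1) and 3 lower (SNHG1, SNHG12 and SNHG15) at an adjusted p under 0.05 in the edgeR quasi-likelihood test, while this fit called 74.1% of 13395 genes, 36.9% higher and 37.2% lower. With siMESH1-7002, 2 were called higher (SNHG5 and SNHG16) and 3 lower (SNHG1, SNHG6 and SNHG15), against 53.3% of 13568 genes, 26.6% higher and 26.7% lower. The median log2 fold change of the 9 was 0.32 with siMESH1-CDS and 0.04 with siMESH1-7002, and over all genes tested it was -0.05 and 0.01. The values of siNT and siMESH1 libraries did not overlap for 8 of the 9 hosts with siMESH1-CDS (82.7% of all genes) and for 7 with siMESH1-7002 (59.5%). Both counts of called hosts lie near the share of all genes called, so neither sets the hosts apart. For a single gene, an exact two-sided permutation test of 3 against 3 libraries cannot go below p = 0.1, and every host whose groups did not overlap had this value.

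**Figure D2:**
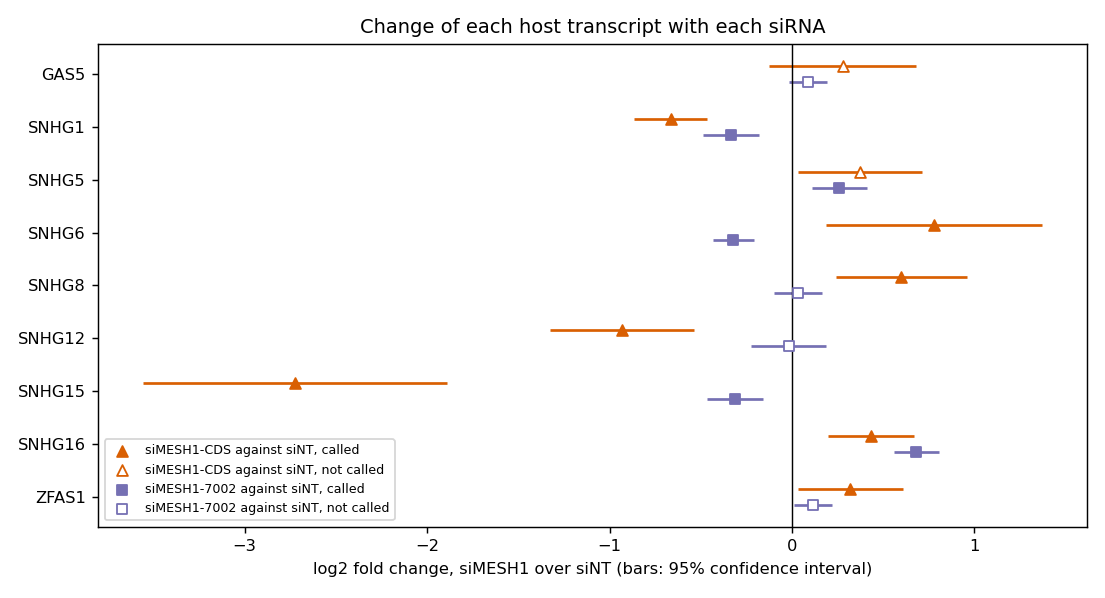
Log2 fold change of each host, siMESH1 over siNT, with siMESH1-CDS as triangles and siMESH1-7002 as squares, bars for the 95% confidence interval, and filled symbols for an adjusted p under 0.05 in the edgeR quasi-likelihood test. SNHG1 and SNHG15 lie below 0 and SNHG16 above 0 with both siRNAs under TMM scaling, SNHG6 lies on opposite sides, and with siMESH1-CDS corrections for GC content moved SNHG6 to 0.13 or 0.04 and SNHG16 to 0.14 or -0.04.

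SNHG1, SNHG15 and SNHG16 were called in the same direction with both siRNAs. SNHG1 hosts 8 snoRNAs of the box C/D class and is transcribed head to head with SLC3A2, which encodes the heavy chain of amino acid transporters. Its levels were 139.9, 140.5 and 134 CPM in the siNT libraries and 91.6, 87.9 and 82.3 with siMESH1-CDS, a fall to 0.631 of the control (log2 -0.66, SE 0.08, edgeR adjusted p = 0.000979). In experiment 2 it was at 19.3, 19.6 and 18.8 CPM in siNT and at 14.7, 14.7 and 16.4 with siMESH1-7002, a fall to 0.794 of the control (log2 -0.33, SE 0.07, edgeR adjusted p = 0.00100). All siMESH1 libraries were below all siNT libraries in each experiment. SNHG1 was the one host that kept its call with each siRNA under every scaling, filter, model and left-out library that was tried, although its change with siMESH1-7002 did not reach a log2 fold change of 0.50 in size.

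SNHG15, a short-lived transcript that hosts SNORA9, had the largest change of the 9 with siMESH1-CDS, while with siMESH1-7002 the fitted changes of SNHG1, SNHG6 and SNHG16 were larger in size. It was at 28.7, 22.6 and 25.1 CPM in siNT and at 3.51, 2.44 and 5.61 CPM with siMESH1-CDS, where the counts were 94 to 195 reads. The level was 0.151 of the control (log2 -2.72, SE 0.34, edgeR adjusted p = 0.00100), and the 3 siMESH1-CDS libraries differed among themselves by more than the siNT libraries did in proportion. With siMESH1-7002 it was at 13.5, 13.7 and 13.005 CPM against 16.8, 17.2 and 16.1 in siNT, or 0.804 of the control (log2 -0.31, SE 0.07, edgeR adjusted p = 0.00156). The groups did not overlap with either siRNA. In the model of all 4 groups, whose spread includes that of experiment 1, the fall with siMESH1-7002 was not called (log2 -0.32, edgeR adjusted p = 0.409).

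SNHG16, which hosts the SNORD1 family and carries the same first 11 bases as GAS5, was the host with the largest rise in experiment 2. Its siNT libraries held 46.7, 48.2 and 51.9 CPM and its siMESH1-7002 libraries 75.2, 82.2 and 78.2, a 1.60-fold rise (log2 0.68, SE 0.06, edgeR adjusted p = 3.55e-08). In experiment 1 the values were 43.6, 44.1 and 42.2 CPM in siNT and 55.8, 62.3 and 57.6 with siMESH1-CDS, a 1.35-fold rise (log2 0.43, SE 0.10, edgeR adjusted p = 0.00782) that was not called when libraries were scaled by their total reads (log2 0.17, edgeR adjusted p = 0.108) and turned to -0.04 after a correction for the GC content of the median transcript. The siNT levels of the 2 experiments were close, and no siMESH1 library reached down to them.

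SNHG6, a TOP-like host of SNORD87, was called in opposite directions under TMM scaling. In experiment 1 its siNT libraries held 45.5, 44.4 and 43.4 CPM and the siMESH1-CDS libraries 76.2, 101 and 51.5, a 1.72-fold rise of the mean (log2 0.78, SE 0.24, edgeR adjusted p = 0.0272). The siMESH1-CDS libraries spread over a range wider than the distance from the lowest of them to the controls. Leaving out any of siNT replicates 1, 2 and 3 or siMESH1-CDS replicate 1 ended the call, with edgeR adjusted p of 0.0731, 0.0779, 0.0806 and 0.0708. Corrections for GC content by the longest and the median transcript brought the rise to 0.13 and 0.04 (edgeR adjusted p = 0.508 and 0.828). In experiment 2 SNHG6 was at 59.3, 62.2 and 59.8 CPM in siNT and at 49.1, 49.4 and 46.4 with siMESH1-7002 (0.800 of the control, log2 -0.32, SE 0.05, edgeR adjusted p = 8.08e-05), with no overlap between the groups. This call was lost in the model of all 4 groups (log2 -0.33, edgeR adjusted p = 0.274).

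GAS5, the founding growth arrest-specific transcript and the host of 10 box C/D snoRNAs here, was not called with either siRNA. Its siNT libraries held 124, 129.5 and 126 CPM, and the siMESH1-CDS libraries 162, 118 and 181. Of these, 2 lay above and 1 below all controls (log2 0.28, SE 0.16, 95% interval -0.12 to 0.68, edgeR adjusted p = 0.169). Without siMESH1-CDS replicate 2, the low library, the change was 0.45 and was called (edgeR adjusted p = 0.00323). With siMESH1-7002 GAS5 was at 115, 117 and 112.2 CPM against 103, 109 and 112.0 in siNT, which do not overlap but nearly touch (log2 0.09, SE 0.05, 95% interval -0.02 to 0.19, edgeR adjusted p = 0.140). Without siNT replicate 3 of experiment 2 it was called at 0.12 (edgeR adjusted p = 0.0109). The GC correction by the longest transcript called GAS5 higher with both siRNAs (0.74 and 0.18, edgeR adjusted p = 0.000134 and 0.000303), and that by the median transcript with siMESH1-7002 alone (0.12, edgeR adjusted p = 0.00367).

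ZFAS1, which hosts SNORD12 snoRNAs and lies head to head with ZNFX1, was at 111, 126 and 123 CPM in siNT and at 152, 130.2 and 167 with siMESH1-CDS. The rise was 1.25-fold (log2 0.32, SE 0.12, edgeR adjusted p = 0.0473) and lay at the edge of the threshold: it was not called without siNT replicate 1, 2 or 3, or without siMESH1-CDS replicate 1 or 3, where the edgeR adjusted p was 0.160, 0.0891, 0.111, 0.125 and 0.103. With siMESH1-7002 the libraries held 93.3, 95.5 and 91.4 CPM against 83.9, 90.1 and 85.0 (log2 0.11, SE 0.05, 95% interval 0.01 to 0.22, edgeR adjusted p = 0.0627), all above the controls but not called. Without siNT replicate 2 or 3 of experiment 2 the edgeR adjusted p was 0.0499 and 0.0300.

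SNHG5, the host of SNORD50A and SNORD50B, lay above its controls in all 6 siMESH1 libraries under TMM scaling. It was at 18.7, 19.7 and 17.8 CPM in siNT and 26.9, 22.1 and 23.7 with siMESH1-CDS (log2 0.37, SE 0.14, edgeR adjusted p = 0.0502), which just missed the threshold and passed it without siMESH1-CDS replicate 2 (0.45, edgeR adjusted p = 0.0161). With scaling by total reads this change was 0.11 (edgeR adjusted p = 0.532). After the GC corrections by the longest and the median transcript it was 0.32 and -0.13 (edgeR adjusted p = 0.0347 and 0.423). With siMESH1-7002 it rose 1.20-fold, from 16.8, 16.8 and 18.7 to 20.8, 21.4 and 20.4 CPM (log2 0.26, SE 0.07, edgeR adjusted p = 0.00533), a call that was lost in the model of all 4 groups (0.25, edgeR adjusted p = 0.104).

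SNHG8 and SNHG12 were called with siMESH1-CDS and had overlapping groups with siMESH1-7002. SNHG8, which hosts SNORA24, went from 27.5, 32.3 and 29.8 CPM to 48.7, 49.3 and 38.0 with siMESH1-CDS (1.52-fold, log2 0.60, SE 0.15, edgeR adjusted p = 0.0115), and was at -0.12 after the GC correction by the median transcript. Without siNT replicate 1 or siMESH1-CDS replicate 1 its edgeR adjusted p was 0.0516 and 0.0505. With siMESH1-7002 SNHG8 was at 35.9, 41.2 and 39.1 CPM against 38.4, 37.7 and 37.4 (log2 0.04, 95% interval -0.10 to 0.17, edgeR adjusted p = 0.662). SNHG12, which hosts SNORD99 and H/ACA snoRNAs, fell from 13.99, 13.5 and 13.3 CPM to 7.65, 6.35 and 7.42 with siMESH1-CDS (0.525 of the control, log2 -0.93, SE 0.16, edgeR adjusted p = 0.00314). After the GC corrections by the longest and the median transcript SNHG12 came out at 0.69 and -0.21 and was not called (edgeR adjusted p = 0.0649 and 0.291). With siMESH1-7002 it was at 6.69, 7.57 and 7.89 CPM against 7.63, 7.60 and 7.20 (log2 -0.02, 95% interval -0.22 to 0.19, edgeR adjusted p = 0.897).

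The difference between the siRNAs was tested in 1 model of the 12 libraries, in which 69.7% of 14154 genes were called (30% higher and 39.7% lower) and the median of all genes was -0.24 on the log2 scale. Of the hosts, SNHG6 and SNHG8 were called higher and SNHG1, SNHG12, SNHG15 and SNHG16 lower with siMESH1-CDS than with siMESH1-7002. The largest differences were -2.56 for SNHG15 (SE 0.33, edgeR adjusted p = 8.09e-05), -1.06 for SNHG12 (SE 0.14, edgeR adjusted p = 0.000111) and 0.95 for SNHG6 (SE 0.26, edgeR adjusted p = 0.00780), with SNHG12 at 0.62 and not called after the GC correction by the longest transcript. The model scaled the 12 libraries together, so its values are not the differences between the separate fits. With the scaling factors of each experiment alone, SNHG6 was at 1.10, and SNHG1 at -0.33 in place of -0.48. GAS5, SNHG5 and ZFAS1 were not called, and the 95% intervals of their differences were -0.37 to 0.45, -0.34 to 0.26 and -0.24 to 0.35, which leave room for differences as large as their changes with 1 siRNA. These 3 differences were called under GC corrections: GAS5 at 0.56 by the longest transcript (edgeR adjusted p = 0.000102), SNHG5 at -0.47 by the median (edgeR adjusted p = 0.0132), and ZFAS1 at 2.05 and 0.36 by the longest and the median (edgeR adjusted p = 0.000305 and 0.00250).

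The average of both changes, from the same model, was called higher for SNHG5 (0.23), SNHG8 (0.23) and SNHG16 (0.47) and lower for SNHG1 (-0.58), SNHG12 (-0.56) and SNHG15 (-1.60), where the model called 74.9% of 14154 genes and the median of all genes was -0.18. After the GC corrections SNHG8 moved to -0.07 by the median transcript. SNHG12 was called higher by the longest (0.43, edgeR adjusted p = 0.0297) and was not called by the median (-0.06, edgeR adjusted p = 0.548). SNHG5 was not called by the median transcript (0.06, edgeR adjusted p = 0.462) or with scaling by total reads (0.18, edgeR adjusted p = 0.0559). The model scaled the 12 libraries together, so these averages are not the means of the changes in the separate fits. GAS5 averaged 0.10 (SE 0.09, edgeR adjusted p = 0.344), and 0.18 with the scaling factors of each experiment alone (edgeR adjusted p = 0.0894). It was called at 0.19 without siMESH1-CDS replicate 2 (edgeR adjusted p = 0.00413) and at 0.47 after the GC correction by the longest transcript (edgeR adjusted p = 1.29e-06), but was at 0.02 by the median (edgeR adjusted p = 0.883). ZFAS1 averaged 0.13 (SE 0.07, edgeR adjusted p = 0.0932). It was called by DESeq2 (0.18, DESeq2 adjusted p = 0.0148), without siMESH1-CDS replicate 2 (0.19, edgeR adjusted p = 0.00631), and after the GC corrections by the longest and the median transcript (1.28 and 0.38, edgeR adjusted p = 4.47e-05 and 1.04e-05). It was also called with the scaling factors of each experiment alone (0.22, edgeR adjusted p = 0.0120), a choice made after seeing the data.

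The changes with siMESH1-CDS depended on how libraries were scaled and on corrections for GC content. Scaling by total reads shifted the median of all genes with siMESH1-CDS to -0.31, and none of the 4 upward calls held (0.49 for SNHG6, 0.33 for SNHG8, 0.17 for SNHG16 and 0.06 for ZFAS1, edgeR adjusted p = 0.0688, 0.0603, 0.108 and 0.724), whereas the 3 downward calls did. A per-library correction for GC content needs 1 value per gene, and the transcripts of a host differ in it: the annotated transcripts of ZFAS1 ran from 43.9% to 59.2% GC, with 55.7% for the longest and a median of 50.5%. With the longest transcript ZFAS1 came to 2.23, GAS5 to 0.74, SNHG8 to 0.91 and SNHG12 to 0.69. With the median transcript, a choice added after seeing the data, the same hosts came to 0.57, -0.06, -0.12 and -0.21. SNHG1 (-0.93 and -1.16) and SNHG15 (-2.41 and -1.57) were called lower under both corrections. SNHG6, SNHG12 and SNHG16 were called under neither, with edgeR adjusted p of 0.0649 and 0.291 for SNHG12. Genes within 2 percentage points of the GC content of ZFAS1 had a median of -1.57 with siMESH1-CDS, those near SNHG6 0.81 and those near SNHG15 -0.17, beside 0.32, 0.78 and -2.72 for the hosts themselves. With siMESH1-7002 both corrections added GAS5 (0.18 and 0.12) and ZFAS1 (0.24 and 0.19) to the upward calls and changed no call of SNHG1, SNHG5, SNHG6, SNHG15 or SNHG16.

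**Figure D3:**
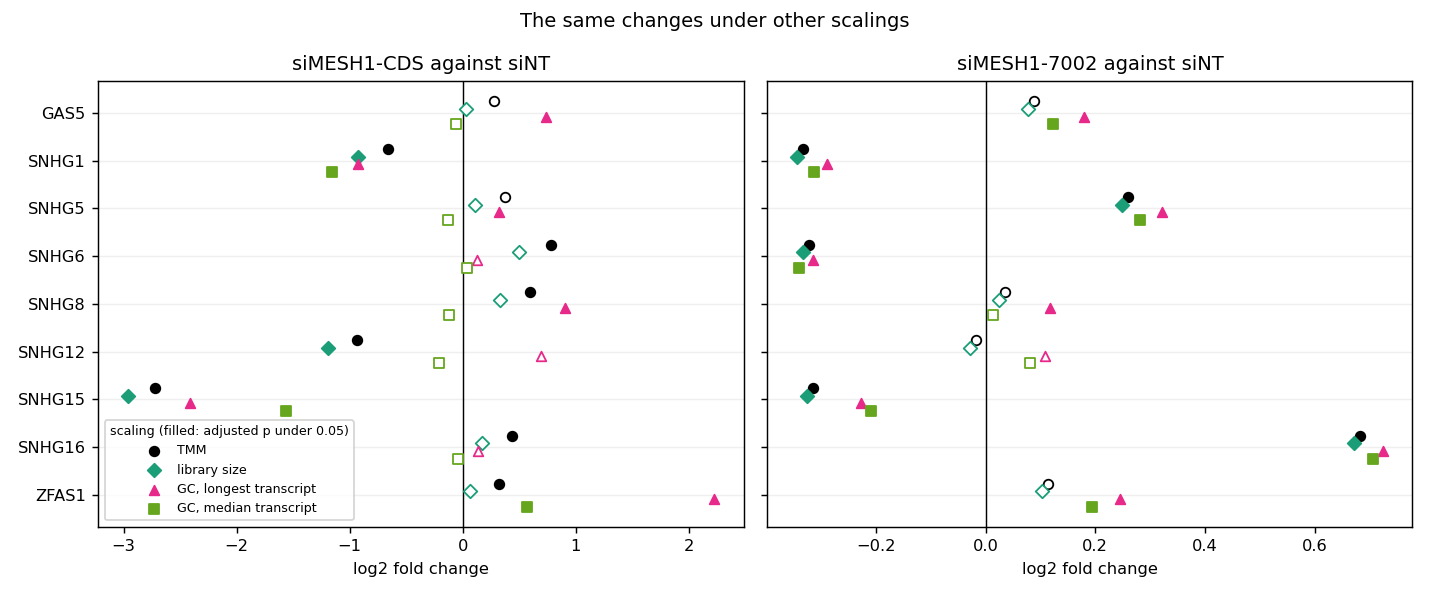
Log2 fold change of each host with siMESH1-CDS (left) and siMESH1-7002 (right, on a narrower axis) under TMM scaling (circles), scaling by total reads (diamonds) and corrections for the GC content of the longest (triangles) or median transcript (squares), filled where the adjusted p was under 0.05. With siMESH1-CDS, ZFAS1 ran from 0.06 to 2.23 and SNHG12 from -1.19 to 0.69, while SNHG1 and SNHG15 stayed below 0 under all 4.

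Sequencing lane gave 2 comparisons within a lane in experiment 1, each of 1 siNT and 1 siMESH1-CDS library and so without a test. All 9 hosts had the same sign on lane 4 as on lane 6. SNHG15 was at -2.35 and -2.84, SNHG1 at -0.77 and -0.55, and SNHG12 at -0.92 and -0.80 on the log2 scale. SNHG6 differed most between them, at 0.18 on lane 4 and 0.81 on lane 6. Lane 5 held siNT replicate 2 alone and lane 7 siMESH1-CDS replicate 2 alone, so a model with lane rests on these same 2 pairs. In that model the calls of SNHG6 (0.49, edgeR adjusted p = 0.0729) and SNHG16 (0.40, edgeR adjusted p = 0.0882) were lost, and GAS5 was called (0.45, edgeR adjusted p = 0.0344). The model cannot tell an effect of lane apart from the loss of replicate 2 of each group. All of experiment 2 ran on 1 lane.

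The count tables also list the intronic snoRNAs, with 33 rows for these 9 hosts. Poly(A) selection and the library size range do not favor such short RNAs, and reads of mature snoRNAs cannot be told apart from reads of precursors that keep the intron. In experiment 1, 30 of the 33 rows passed the filter, and 13 were called lower and none higher with siMESH1-CDS (edgeR quasi-likelihood test), beside 37.2% and 36.9% of all genes tested, and 13 of 30 lies near the share of all genes called lower. Of the 13, 7 belonged to SNHG1, 3 to SNHG12, 2 to GAS5 and 1 to SNHG15, so 11 lay in hosts that were called lower themselves. On leaving out a library, SNORD22, SNORD27, SNORD29, SNORD30, SNORA61 and SNORA9 could lose the call (edgeR adjusted p of up to 0.152), and the rest kept it. SNORD27 was also not called by DESeq2 (DESeq2 adjusted p = 0.0504). SNORD74, SNORD25 and SNORA16A had 0 to 2, 0 to 5 and 2 to 3 reads in the siMESH1-CDS libraries. In experiment 2, 13 rows passed and 1 was called, SNORD28 of SNHG1, at -1.08 on the log2 scale (edgeR adjusted p = 0.0265). It had 10 to 19 reads in siNT and 5 to 11 with siMESH1-7002, with overlapping CPM, and was not called by DESeq2 (DESeq2 adjusted p = 0.0894) or without siNT replicate 1 or 2 or siMESH1-7002 replicate 1 or 3 (edgeR adjusted p of up to 0.120).

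Relative to the host, the snoRNA rows of SNHG12 held 34.2 ± 1.37 reads per 100 host reads in siNT and 18.6 ± 8.30 with siMESH1-CDS, and those of SNHG1 held 17.9 ± 1.00 and 13.1 ± 2.23 (n = 3). The groups did not overlap for either host, which is the smallest p of 0.1 that an exact permutation test of 3 against 3 allows. For GAS5 the ratio was 21.5 ± 2.27 in siNT and 17.7 ± 8.15 with siMESH1-CDS, with 11.5 to 26.9 across the siMESH1-CDS libraries, and the groups overlapped. In experiment 2 the ratios of SNHG1 (18.7 ± 1.62 and 17.9 ± 1.11), SNHG12 (20.4 ± 7.90 and 19.5 ± 2.62) and GAS5 (4.38 ± 0.280 and 4.86 ± 1.08) overlapped between siNT and siMESH1-7002. Over all 368 snoRNA rows of the tables, CPM without TMM scaling were 165 to 192 in siNT and 111 to 129 with siMESH1-CDS in experiment 1, and 40.6 to 47.5 and 43.7 to 55.4 in experiment 2. The part of this shift over all snoRNA rows in the values of these hosts was not tested.

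**Figure D4:**
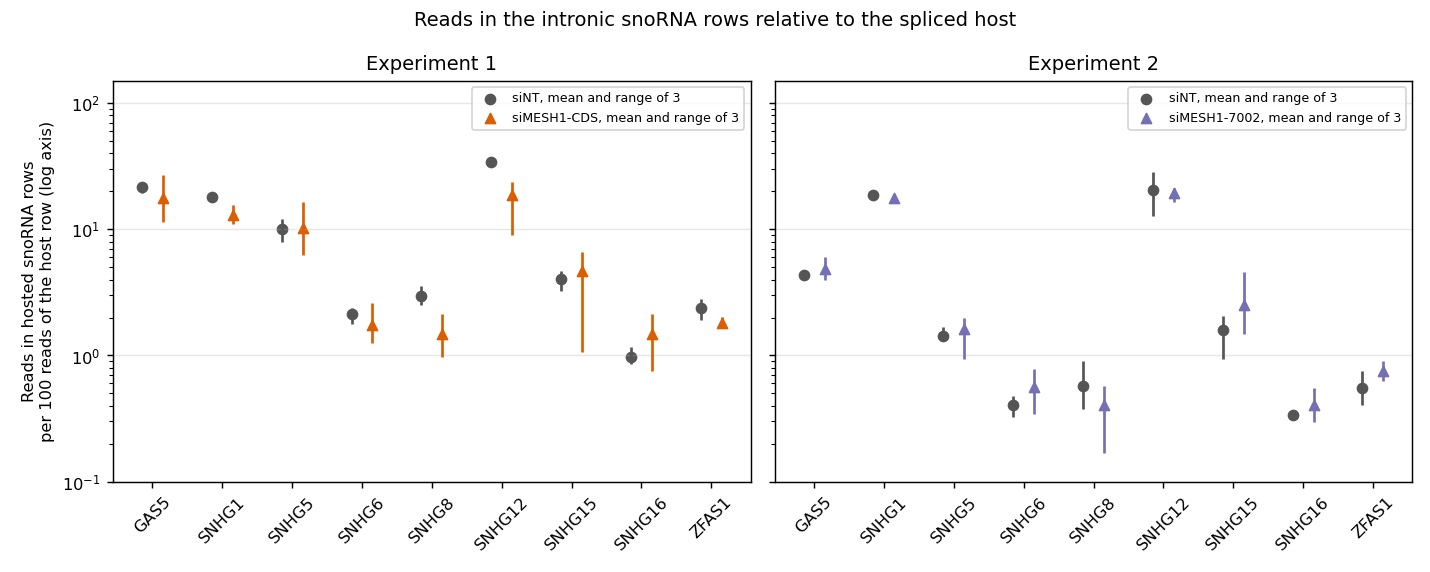
Reads in the intronic snoRNA rows per 100 reads in the row of the host (log axis), with the mean (symbol) and range (bar) of 3 libraries, siNT as circles and the MESH1 siRNA as triangles. With siMESH1-CDS the ranges of SNHG1, SNHG8 and SNHG12 lie below those of siNT, and GAS5 is at 21.5 in the siNT cells of experiment 1 and at 4.38 in those of experiment 2.

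A gene starts within 1000 bases of a host on the other strand in 3 cases. SLC3A2, 188 bases from the start of SNHG1, fell with it: 209, 176 and 192 CPM in siNT and 77.8, 31.5 and 126 with siMESH1-CDS (log2 -1.29, edgeR adjusted p = 0.0451), and 146, 145 and 134 against 123, 113 and 115 with siMESH1-7002 (log2 -0.27, edgeR adjusted p = 0.000245). The call with siMESH1-CDS was lost without siNT replicate 1, 2 or 3 or siMESH1-CDS replicate 1 (edgeR adjusted p of up to 0.114). After the GC corrections by the longest and the median transcript SLC3A2 was called higher with siMESH1-CDS (0.84 and 0.49, edgeR adjusted p = 0.000189 and 0.00644), opposite to SNHG1. Under TMM scaling ZNFX1, 248 bases from ZFAS1, was not called with siMESH1-CDS (log2 0.19, edgeR adjusted p = 0.566) or siMESH1-7002 (log2 -0.10, edgeR adjusted p = 0.0653), and neither was ZBTB37, 800 bases from GAS5 (log2 -0.28 and -0.06, edgeR adjusted p = 0.400 and 0.752). With siMESH1-CDS the GC corrections by the longest and the median transcript called ZNFX1 higher (0.87 and 0.56, edgeR adjusted p = 0.00129 and 0.0237). ZBTB37 was called lower by the longest (-1.02, edgeR adjusted p = 0.0352) but not by the median (-0.30, edgeR adjusted p = 0.306). GENCODE classes SNHG12 and ZFAS1 as antisense genes, and the count tables are marked as made with the reverse-strand setting that fits the library kit.

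The 8 other noncoding snoRNA hosts in the tables gave a further set for comparison. With siMESH1-CDS 1 was called higher (EPB41L4A-AS1, log2 0.80) and 5 lower, beside 36.9% and 37.2% of all genes, with a median log2 fold change of -1.45. With siMESH1-7002 none was called higher and 2 lower, beside 26.6% and 26.7% of all genes, with a median of 0.06 (edgeR quasi-likelihood test). DANCR fell with both, from 31.1 ± 1.66 to 7.17 ± 1.21 CPM with siMESH1-CDS (log2 -2.12, edgeR adjusted p = 0.000366) and from 18.1 ± 1.63 to 8.45 ± 0.569 with siMESH1-7002 (log2 -1.10, edgeR adjusted p = 2.41e-08). SNHG9 had 27 to 37 reads in the siNT libraries of experiment 1 and no read in any siMESH1-CDS library, which makes it at least 8.75-fold lower against a floor of 3 reads per library. SNHG7 fell with siMESH1-CDS (log2 -1.13, edgeR adjusted p = 0.00172), but was called higher after the GC corrections by the longest and the median transcript (3.34 and 2.00).

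A TOP-like start was found in 77.0% of 87 ribosomal protein genes, and the share among those that host snoRNAs was not counted. Of these ribosomal protein hosts, 2 of 21 tested were called higher and 9 lower with siMESH1-CDS (median -0.53), beside 36.9% and 37.2% of all genes. With siMESH1-7002 2 were called higher and 2 lower (median 0.00), beside 26.6% and 26.7% of all genes. RPL5 rose with both (log2 0.81 and 0.17), while RPL13 and RPLP2 fell with siMESH1-CDS (log2 -2.40 and -2.15) and were not called with siMESH1-7002. After the GC correction by the longest transcript RPLP2 was called higher with siMESH1-CDS (1.11, edgeR adjusted p = 0.0300) and RPL13 was not called (-0.42, edgeR adjusted p = 0.112), and by the median transcript both were called lower (-0.87 and -0.58). These counts turned with the GC correction, to 7 higher and 3 lower with siMESH1-CDS and 11 higher and 1 lower with siMESH1-7002. Of the 27 other coding hosts tested, 12 were called higher and 11 lower with siMESH1-CDS and 8 and 12 with siMESH1-7002, beside the same shares of all genes. In this list RNF149 rose with both siRNAs (log2 1.34 and 0.41) and RCC1, the nuclear exchange factor for RAN, fell with both (-2.42 and -0.36). The ribosome maturation gene PPAN was called lower with both (-4.36 and -0.37) on 0 to 3 reads in the siMESH1-CDS libraries, and was not called after the GC corrections by the longest and the median transcript, at -1.01 and -1.08 with siMESH1-CDS (edgeR adjusted p = 0.162 and 0.138) and -0.22 and -0.23 with siMESH1-7002 (edgeR adjusted p = 0.0564 and 0.0506).

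The proteins that act on snoRNAs and their hosts were counted as well. Of 17 snoRNP proteins and assembly factors, 3 were called higher and 9 lower with siMESH1-CDS (median -1.09), and 1 higher and 11 lower with siMESH1-7002 (median -0.18), beside 37.2% and 26.7% of all genes called lower. NOLC1, a nucleolar chaperone of snoRNPs, fell with both (log2 -1.09 and -0.20), whereas SHQ1, which binds the pseudouridine synthase of H/ACA particles, fell with siMESH1-CDS (-2.03) and was at -0.01 and not called with siMESH1-7002. The assembly factor PIH1D1 was called lower with both (-2.25 and -0.27), but with siMESH1-CDS came to -0.13 and -0.17 after the GC corrections by the longest and the median transcript (edgeR adjusted p = 0.612 and 0.500). Of 19 nonsense-mediated decay factors, 6 were called higher and 8 lower with siMESH1-CDS and 4 and 5 with siMESH1-7002, beside 36.9% and 37.2%, and 26.6% and 26.7%, of all genes. RNPS1, a protein deposited near exon junctions, fell with siMESH1-CDS (-3.05) and was called with siMESH1-7002 (-0.17) under TMM scaling but not after the GC corrections (-0.05 and -0.06, edgeR adjusted p = 0.209 and 0.129) or without siMESH1-7002 replicate 3 (edgeR adjusted p = 0.0518). The decapping factor DCP1A and the exon junction protein RBM8A fell with siMESH1-CDS (-1.16 and -1.10) and were at -0.11 and 0.06, not called, with siMESH1-7002. Of 16 regulators of TOR and of TOP mRNAs, 6 rose and 6 fell with siMESH1-CDS and 6 rose and 4 fell with siMESH1-7002, beside the same shares of all genes. EIF4EBP1, a translation repressor controlled by TOR, was among those that fell with both (-5.79 and -0.33), and with siMESH1-CDS its change was -2.07 and -2.80 after the GC corrections by the longest and the median transcript. EIF4EBP2 fell with siMESH1-7002 (-0.65). With siMESH1-CDS it was at 0.06 and not called under TMM scaling, but was called lower after the GC corrections (-0.40 and -0.54, edgeR adjusted p = 0.000570 and 0.000612) and with scaling by total reads (-0.21, edgeR adjusted p = 0.0252). RPTOR was called lower with siMESH1-CDS under TMM scaling (-2.49) and was at 0.43 and 0.13 after the GC corrections (edgeR adjusted p = 0.177 and 0.643), and with siMESH1-7002 it was at 0.02 and not called, but was called higher after them (0.16 and 0.14). No list was tested as a set.

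Of 12 growth arrest genes, 8 passed the filter in experiment 1, with 2 called higher and 4 lower (36.9% and 37.2% of all genes), and 9 in experiment 2, with 4 higher and 3 lower (26.6% and 26.7%). GADD45A, a DNA damage and growth arrest gene, rose from 41.9 ± 1.58 to 151 ± 31.8 CPM with siMESH1-CDS (log2 1.85, edgeR adjusted p = 0.000432) and from 26.7 ± 0.923 to 44.7 ± 0.778 with siMESH1-7002 (log2 0.74, edgeR adjusted p = 1.64e-08). GAS2L3, a cytoskeletal linker, also rose with both (log2 1.50 and 0.54), and GAS1 was called lower with siMESH1-7002 by edgeR (log2 -0.51, edgeR adjusted p = 0.0149) but not by DESeq2 (DESeq2 adjusted p = 0.0706), and was too low to test in experiment 1.

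The gene most like GAS5 over the 12 libraries, on log2 CPM centered within each experiment and among 12277 genes, was the ribosomal protein gene RPL34 with a Pearson r of 0.985, followed by TCF20, GLOD4, TYW1 and INPP5B at 0.974 to 0.969. Among the hosts, ZFAS1 (0.895) and SNHG5 (0.695) were most like GAS5 and SNHG1 (-0.61) least. The libraries of 1 group share their siRNA and experiment, so these values are a description of 12 points. Among the siMESH1-CDS libraries, GAS5 and each of the genes most like it were lowest in replicate 2 and highest in replicate 3, as with RPL34 at 186, 127 and 218 CPM. The part of this spread within 1 group in the likeness was not tested. RPL34 itself was not called with siMESH1-CDS (log2 0.39, edgeR adjusted p = 0.120) and rose with siMESH1-7002 (0.20, edgeR adjusted p = 0.00466).

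The seed of an siRNA guide strand (its bases 2 to 8) can lower other transcripts that match it. The site for siMESH1-CDS, ACATTGT in the transcript, was found in an annotated transcript of ZFAS1 alone among the hosts and in 25.04% of all matched genes. The catalogue number of siMESH1-7002 differs between the treatment protocol and the series design, and its seed was taken from the stated target sequence. The site for siMESH1-7002, GCTAACT, was found in SNHG6, SNHG15 and SNHG16 and in 11.1% of genes. Of the latter, SNHG6 and SNHG15 were called lower and SNHG16 higher with that siRNA.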

How the data were processed

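RNA from 12 RCC4 cultures was made into stranded poly(A) libraries and read as 50-base single reads. The authors deposited whole-number counts of reads per gene symbol for each library. The submitters' processing notes name FastQC, HISAT2, HTSeq, DESeq2 and the build hg19, without versions. The annotation behind the counts is not given in the sources used here. HTSeq drops reads that map to several places, whose entries were 9.98% to 12.6% of all entries of a count file in experiment 1 and 23.6% to 27.1% in experiment 2, and this can lower a host that shares sequence with its copies. Tables of the authors' own DESeq2 comparisons (fold changes and p-values) were not used. Rows that name no gene stayed out of library sizes. Reads that fell in no gene were 14.7% to 20.8% of all entries in experiment 1 and 10.0% to 12.2% in experiment 2.

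Each siRNA was compared with the siNT libraries of its own experiment by the edgeR 4.0.16 quasi-likelihood test in R 4.3.3 on the deposited counts, with filterByExpr, TMM scaling and Benjamini-Hochberg adjustment over all genes tested, and called at an adjusted p under 0.05. The average and the difference of both changes came from 1 model with a mean for each of the 4 groups. It scaled the 12 libraries together, so both can depart from the mean and the difference of the separate fits. Within a group the 3 libraries differed by more than sampling noise (chi-square per degree of freedom of at least 2.29 for every pair), so none was merged. On simulated counts with 200 genes changed 2-fold, 13% were recovered at the spread of experiment 1 and 98% at that of experiment 2. The simulation gave every gene and both groups 1 common spread. In the data of experiment 1 the spread was wide for siMESH1-CDS alone, and the log2 SE was 0.08 for SNHG1 and 0.34 for SNHG15. The 13% is therefore not the power for these hosts.

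GC content, lengths, starts and neighbours came from GENCODE 29 on GRCh38, matched by symbol for 94.2% of 23710 symbols, and no coordinates were carried over to hg19. Alternatives were DESeq2 1.42.0, scaling by total reads, at least 10 counts in every library, no filter, a fold threshold (log2 fold change of at least 0.50 in size), a GC correction (lowess, span 0.3, per library), lane, all 4 groups in 1 model, a term for the replicate number, and leaving out each library. The GC correction by the median transcript, the scaling factors of each experiment alone and the sum of the hosts per total reads were added after seeing the data. The hosts and the gene lists were chosen with earlier results of these data known. Named genes are the 9 hosts, from each list the 3 other genes with the smallest p in the average, EPB41L4A-AS1 (the 1 other host called higher, named after its values were seen), genes that start within 1000 bases of a host, the 5 genes most like GAS5 and the hosted snoRNAs.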

Additional observations from a re-analysis of the deposited data

Results flagged for a closer look

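The change with siMESH1-CDS minus the change with siMESH1-7002 passed the edgeR quasi-likelihood test for 6 of the 9 hosts, which marks them for a closer look: SNHG15 (-2.56 on the log2 scale), SNHG12 (-1.06), SNHG6 (0.95), SNHG1 (-0.48), SNHG8 (0.41) and SNHG16 (-0.40). The same test called 69.7% of all genes, and siRNA and experiment cannot be told apart. SNHG1 and SNHG15 kept this call under all alternatives tried. SNHG6 was not called after the GC correction by the longest (0.37, edgeR adjusted p = 0.0826) or median transcript (0.32, edgeR adjusted p = 0.101). SNHG12 was not called under either (0.62 and -0.29, edgeR adjusted p = 0.102 and 0.180). SNHG8 was at -0.20 and not called by the median transcript (edgeR adjusted p = 0.186), and was not called with scaling by total reads (0.30, edgeR adjusted p = 0.0839) or without any 1 of 9 of the 12 libraries, with an edgeR adjusted p of up to 0.0975. SNHG16 was not called with the scaling factors of each experiment alone (-0.25, edgeR adjusted p = 0.0624) or without siMESH1-CDS replicate 1 (-0.30, edgeR adjusted p = 0.0535).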

How the results depend on the processing

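Counts of hosts called moved by over 1.5 times as follows. The 4 called higher with siMESH1-CDS became 0 with scaling by total reads, 2 with at least 10 counts in every library, 1 with the GC correction by the median transcript, 2 with the fold threshold, and 1 to 6 on leaving out a library. The 2 called higher with siMESH1-7002 became 5 with the GC correction, 4 with the median transcript, 1 with all 4 groups in 1 model, 1 with the fold threshold, and 2 to 4 on leaving out a library. The 3 called lower became 1 with all 4 groups in 1 model and 0 with the fold threshold. The 3 called higher in the average became 6 with the GC correction, 0 with the fold threshold, and 2 to 5 on leaving out a library. The 2 called higher in the difference became 1 with scaling by total reads, 1 with the median transcript and 1 to 2 on leaving out a library. The fold threshold, a log2 fold change of at least 0.50 in size, lowers counts by construction. The cause of the other moves was not tested. All genes called with siMESH1-7002 went from 7235 to 2582 in the model of all 4 groups and to 2413 with the fold threshold.

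The sign of a change turned in these cases. With siMESH1-CDS and the GC correction by the median transcript, GAS5 was at -0.056, SNHG5 at -0.13, SNHG8 at -0.12 and SNHG16 at -0.044, and with that by the longest SNHG12 was at 0.69. With siMESH1-7002 SNHG12 was at 0.11 and 0.081 under the 2 GC corrections and ran from -0.067 to 0.048 on leaving out a library (0.048 without siMESH1-7002 replicate 1), and SNHG8 ran from -0.011 (without siMESH1-7002 replicate 2) to 0.087. In the average SNHG6 was at -0.11 and -0.17 under the GC corrections, SNHG8 at -0.070 by the median transcript and SNHG12 at 0.43 by the longest. In the difference GAS5 was at -0.051 with scaling by total reads, -0.23 by the median transcript and from -0.030 to 0.19 on leaving out a library (below 0 without siMESH1-CDS replicate 3 or siNT replicate 3 of experiment 2). SNHG5 was at 0.083 with DESeq2, 0.11 with the factors of each experiment alone and from -0.11 to 0.040 on leaving out a library (above 0 without siMESH1-CDS replicate 2 or 3). SNHG8 was at -0.20 by the median transcript and SNHG12 at 0.62 by the longest. ZFAS1 was at -0.040 with scaling by total reads and from -0.0038 (without siNT replicate 1 of experiment 1) to 0.14 on leaving out a library. The summed CPM of the 9 hosts with siMESH1-CDS minus siNT went from 45.5 to -60.7 with scaling by total reads.

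Among the lists, the GC correction moved the other noncoding hosts called higher to 2 with siMESH1-CDS and 1 with siMESH1-7002. It moved the ribosomal protein hosts to 7 higher and 3 lower, and to 11 higher and 1 lower. It left 1 nonsense-mediated decay factor lower with siMESH1-7002. It moved the growth arrest genes to 4 higher and 1 lower with siMESH1-CDS and 1 lower with siMESH1-7002. Scaling by total reads left 1 ribosomal protein host higher with siMESH1-CDS.

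Replicate numbers did not pair the libraries: same-numbered deviations correlated at -0.05, 0.24 and 0.13 in experiment 1 and -0.07, 0.04 and -0.08 in experiment 2, and not every library was most like its own number. With a replicate block, 3 hosts were called higher with siMESH1-CDS, ZFAS1 being lost (edgeR adjusted p = 0.0921), and 1 in the difference, SNHG8 being lost (edgeR adjusted p = 0.0721).

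Leaving out a library that leaves a group of 2 keeps 1 residual degree of freedom less, and 3 libraries a group limit all tests. The hosts had 94 to 7449 reads in each library of experiment 1. The parts of counting error, of the spread between libraries and of the scaling in their precision there were not tested. The snoRNA rows had as few as 1 read for a host and are limited by depth.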
